A study of Mus musculus with 18 samples.

Results

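A set of 9 transcription factors that divide the neural tube from dorsal to ventral were followed in cultured neural stem cells (NSCs) and in the astrocytes made from them: Pax3 and Pax7 of dorsal progenitors, Pax6, Irx3, Dbx1 and Dbx2 of intermediate progenitors, and Nkx6-1, Nkx6-2 and Nkx2-2 of ventral progenitors. The genes were chosen by name as 9 homeobox and paired box factors of the dorsoventral axis. The rule uses no measured value, but earlier results of these data were known when it was made. Of the 9, 7 were found among the 27997 genes of the expression table, and Pax3 and Dbx1 were not analysed here. Of the 7, 5 reached the level required for testing in every comparison (Dbx2, Pax6, Irx3, Nkx6-1 and Nkx2-2), and Pax7 and Nkx6-2 did so in none.

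In the embryonic neural tube, Sonic hedgehog from the floor plate and BMP and Wnt signals from the roof plate set up opposing gradients, and progenitors read them out by switching homeodomain factors on or off. Pax7, Pax6, Irx3 and the Dbx factors are held back by strong hedgehog signalling, whereas Nkx6-1, Nkx6-2 and Nkx2-2 need it, and pairs of these factors repress each other across domain borders. Each combination of factors marks a progenitor domain that gives rise to its own class of spinal neurons, and several of the factors are kept in glia and in adult ependymal cells.

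The cultures came from 3 adherent lines, and each line was sequenced as NSCs and as astrocytes, with 3 libraries per group and 18 libraries in all. Both traced lines were grown from cells of the spinal cord marked by Cre under the control of Clec9a, the gene of DNGR-1, and sorted from neurospheres by their reporter. The tdTomato line carried the label DNGR-1 +/- Tom+/- (a floxed-stop tdTomato reporter at Rosa) and the EYFP line DNGR-1 +/- EYFP+/- (a floxed-stop EYFP reporter at Rosa). The third line came from hippocampi of mice with Cre driven by Glast, a floxed Huwe1 allele and an EYFP reporter, and was labelled DNGR-1+/+. NSCs of all lines were kept in bFGF, EGF, heparin and laminin and harvested on day 4, whereas cells for astrocytes received BMP4 at 20 ng/ml in place of the growth factors and were harvested on day 6. BMP4, the loss of the growth factors and the day of harvest therefore cannot be told apart between fates. Changes given below as with or after BMP4 are changes with this whole protocol. Replicates were cultures at passages 10, 11 and 12 of the same line, so that the error bars and p-values measure the spread between cultures of a line, not between animals, and line, reporter and genotype cannot be told apart. Traced and hippocampal cultures also differ in tissue and Cre driver, and the hippocampal ones come from the third line alone. Differences between origins below are therefore differences between these lines. Per the methods of the study, its mice were backcrossed to C57BL/6j and used as young adults unless stated otherwise, and the number of mice behind each line is not given in the sources used here.

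The values are log2 expression values normalized to library size. They have the form of a regularized log, in which genes with few reads are pulled towards their own mean over all libraries, so that differences of weak genes are understated and a gene with no reads has no fixed value. The median absolute difference between replicates ranged from 0.0607 to 0.107, and no libraries were identical. The origin of the lines was visible in genes of the body axis. Hoxa9 and Hoxc10, which mark the trunk, had means of 9.11 to 10.07 in the traced and 4.57 to 4.70 in the hippocampal groups, whereas Hoxa5 was also at 9.25 and 8.51 in hippocampal NSCs and astrocytes, and the forebrain factors Emx2 and Lhx2 were at 7.57 or more in every group. Huwe1, floxed in the hippocampal line, was at 13.28 ± 0.11 in its NSCs and at 13.32 ± 0.06 and 13.32 ± 0.07 in tdTomato and EYFP NSCs (SD, n = 3 each), a log2 difference of 0.04 (95% interval -0.08 to 0.16, limma adjusted p = 0.641). The 3 skeletal muscle markers found were below the level required for testing in every group. In bulk RNA, fewer cells of a type and less RNA per cell cannot be told apart.

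Promoter windows, from 250 bases before to 50 bases after the annotated start, were available from RefSeq (GRCm38.p6) for 8 of the 9 genes. Those of Nkx6-1 and its paralogue Nkx6-2 are shown because the former was the member called between traced and hippocampal cultures in both fates and the latter stayed low everywhere, and those of Pax6 and Irx3 because their values moved together. Capitals mark the only match found, to a GC-rich motif bound by SMAD proteins, the transducers of BMP signals. Nkx6-1 lies at chr5:101664662-101664961 (minus strand), Nkx6-2 at chr7:139582748-139583047 (minus strand), Pax6 (the upstream of its 2 windows) at chr2:105668646-105668945 (plus strand) and Irx3 at chr8:91801605-91801904 (minus strand).
Nkx6-1: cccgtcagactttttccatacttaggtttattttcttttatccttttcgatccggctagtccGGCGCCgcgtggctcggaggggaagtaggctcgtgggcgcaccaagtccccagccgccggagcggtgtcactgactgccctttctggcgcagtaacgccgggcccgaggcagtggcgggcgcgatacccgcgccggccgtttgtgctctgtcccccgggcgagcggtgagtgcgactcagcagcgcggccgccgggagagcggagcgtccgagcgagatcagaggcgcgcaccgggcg
Nkx6-2: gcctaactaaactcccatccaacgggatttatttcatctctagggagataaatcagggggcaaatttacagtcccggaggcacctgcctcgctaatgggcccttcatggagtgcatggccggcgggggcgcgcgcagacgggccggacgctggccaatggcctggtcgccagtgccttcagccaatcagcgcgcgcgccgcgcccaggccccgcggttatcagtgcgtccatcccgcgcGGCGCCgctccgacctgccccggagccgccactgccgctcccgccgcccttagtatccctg
Pax6: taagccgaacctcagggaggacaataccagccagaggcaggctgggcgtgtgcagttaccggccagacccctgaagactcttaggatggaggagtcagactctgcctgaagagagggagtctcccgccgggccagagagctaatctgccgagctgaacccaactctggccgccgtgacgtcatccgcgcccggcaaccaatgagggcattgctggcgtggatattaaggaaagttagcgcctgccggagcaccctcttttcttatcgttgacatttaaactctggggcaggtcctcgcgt
Irx3: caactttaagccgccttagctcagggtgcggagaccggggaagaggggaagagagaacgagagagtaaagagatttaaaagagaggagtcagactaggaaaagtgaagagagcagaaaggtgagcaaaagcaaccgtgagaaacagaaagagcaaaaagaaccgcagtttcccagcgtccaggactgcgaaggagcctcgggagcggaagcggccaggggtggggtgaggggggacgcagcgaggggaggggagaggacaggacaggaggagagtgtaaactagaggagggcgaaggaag

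A total of 4 motifs were searched on both strands, GGCGCC (the GC-rich SMAD motif), GTCTAGAC (the palindromic SMAD motif), GACCACCCA (the motif of GLI, the transducer of hedgehog) and TAATTA (the core of homeodomain sites). GGCGCC began at base -188 in Nkx6-1 and at base -11 in Nkx6-2, counted from the start site, and is held by 11.9% of the 32851 promoter windows in RefSeq. GTCTAGAC (0.213% of windows), GACCACCCA (0.253%) and TAATTA (5.29%) matched no member's window. The window of Nkx6-1 held 40 CG dinucleotides and that of Nkx6-2 32, against 18 in Pax6, 14 in Irx3 and a median of 7 over all windows. The matches are descriptions of sequence, and the expressed Nkx6-1 and the low Nkx6-2 both held one.

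Pax7 and Nkx6-2 stayed below the level required for testing. Pax7, which marks dorsal progenitors, was between 0.29 and 2.22 in all 18 libraries, with its highest mean in EYFP NSCs (1.92 ± 0.33, SD, n = 3) and its lowest in EYFP astrocytes (0.31 ± 0.02). Nkx6-2, a ventral factor related to Nkx6-1, was between 1.79 and 2.90, and its groups overlapped with their neighbours throughout the order of means. Neither gene reached a log2 value of 3.32, which is 10 on the linear scale, in any library. A value this low does not show on this scale whether a library had reads of the gene. Pax7 was higher in NSCs than in astrocytes without overlap in the EYFP and hippocampal lines, and its tdTomato groups overlapped. Without the filter Pax7 changed by -1.61 in the EYFP line (adjusted p = 0.00105, limma). The change was -0.54 in the hippocampal line (adjusted p = 0.0262) and -0.60 in the tdTomato line (adjusted p = 0.267, limma). Of the 75-base stretches of Nkx6-2 transcripts, 9.49% also occur in Inpp5a, which overlaps it on the opposite strand and was at 8.71 to 9.58 in group means. Of the transcripts of Dbx2, Pax7 and Nkx6-1 none had a stretch shared with another gene.

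**Figure D1:**
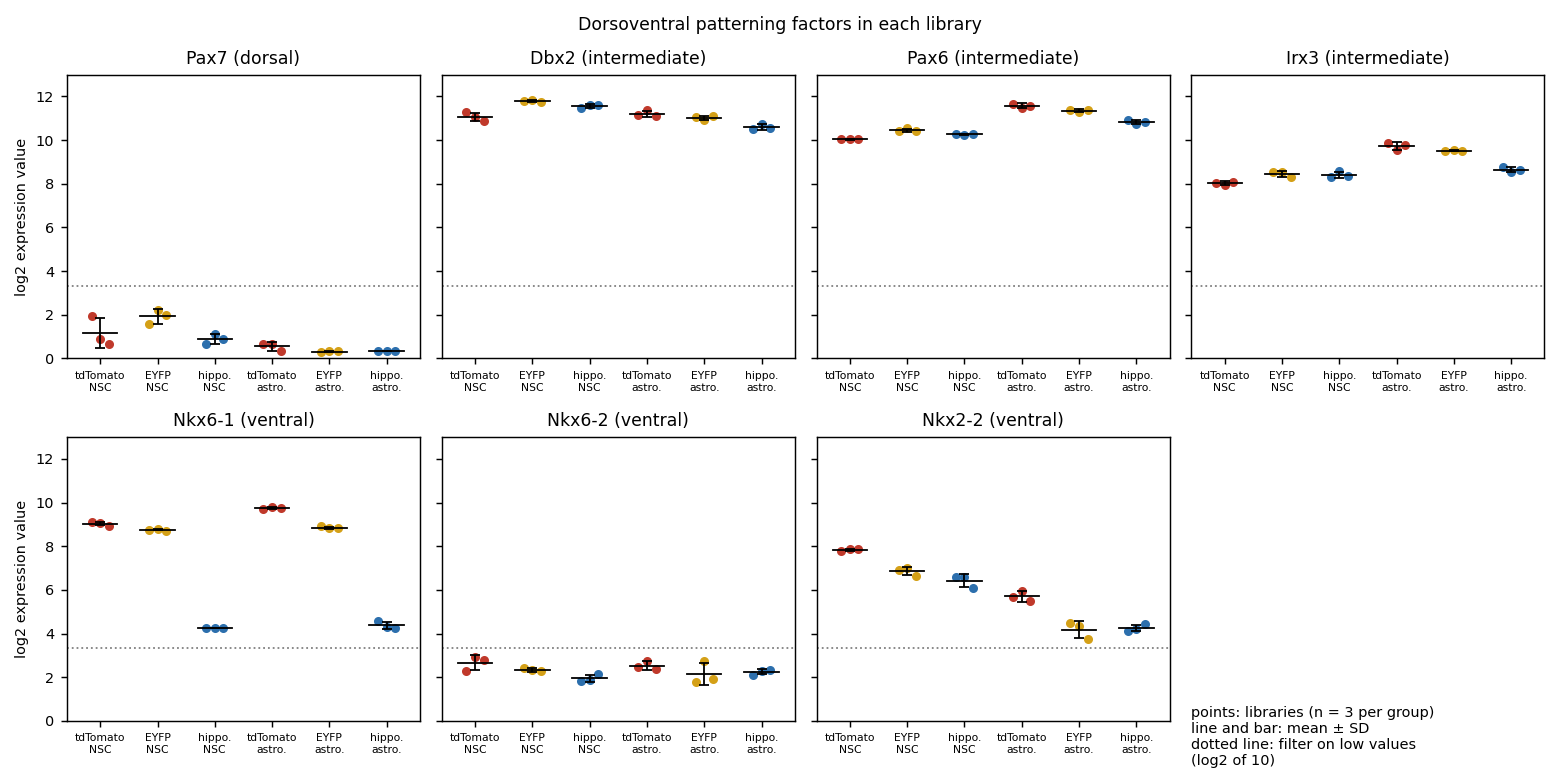
Log2 expression value (y axis) of the 7 members in each of the 6 groups (x axis), with 1 point per library, the mean and the SD (n = 3), and a dotted line at 3.32, the filter on low values. Nkx6-1 lay at 8.72 to 9.80 in the traced and 4.23 to 4.56 in the hippocampal libraries, and Pax7 and Nkx6-2 lay under the line in all.

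Between NSCs and astrocytes, Pax6, Irx3 and Nkx6-1 were higher and Nkx2-2 and Dbx2 lower in astrocytes over all lines, so that all 5 members tested passed the threshold, an adjusted p of 0.05 (limma with Benjamini-Hochberg adjustment across the table). Nkx6-1 lost its call over all lines with quantile normalization (limma adjusted p = 0.0591), which left 4 of 5, and with each line tested on its own as deposited it passed in the tdTomato line alone. Of all genes tested, 81.9% changed in this comparison, 42.1% higher and 39.8% lower, so a count of 5 of 5 is close to what most genes did. All 6 astrocyte markers, the 3 ependymal markers tested and 3 of 4 neuron markers rose as well (medians 2.14, 1.51 and 1.16), and their part in the changes of the members was not tested. What set the members apart from each other was the size of the change and how it differed between lines.

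Pax6, the paired homeodomain factor of intermediate progenitors and a regulator of neurogenesis and of astrocyte maturation, had log2 values of 10.06, 10.03 and 10.03 in tdTomato NSCs, 10.43, 10.53 and 10.40 in EYFP NSCs, and 10.27, 10.22 and 10.28 in hippocampal NSCs. In the astrocytes it was at 11.67, 11.45 and 11.57 in the tdTomato line, 11.38, 11.28 and 11.38 in the EYFP line, and 10.91, 10.73 and 10.81 in the hippocampal line. Every astrocyte library lay above every NSC library. The change over all lines was 0.99 on the log2 scale (standard error 0.10, adjusted p = 6.35e-08, limma), or 1.99-fold. Line by line, tdTomato cultures changed by 1.53 (adjusted p = 1.61e-08), EYFP cultures by 0.90 (adjusted p = 2.75e-07) and hippocampal cultures by 0.56 (adjusted p = 4.07e-06, limma in each).

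Irx3, an iroquois factor that Pax6-positive intermediate progenitors carry and that opposes Olig2 at the border of the motor neuron domain, gave values of 8.05, 7.92 and 8.10 in tdTomato NSCs, 8.52, 8.54 and 8.30 in EYFP NSCs and 8.29, 8.57 and 8.35 in hippocampal NSCs. The corresponding astrocytes were at 9.88, 9.54 and 9.75, at 9.49, 9.54 and 9.52, and at 8.75, 8.53 and 8.62. Traced astrocytes were clear of all NSCs, and hippocampal astrocytes overlapped with hippocampal NSCs. The change was 1.70 in the tdTomato line (standard error 0.09, adjusted p = 1.78e-07) and 1.06 in the EYFP line (standard error 0.07, adjusted p = 9.51e-07, limma). In the hippocampal line it was 0.23 (95% interval 0.02 to 0.43, limma adjusted p = 0.0445), and this call was lost without any 1 of 4 of the 6 libraries (adjusted p of 0.0745 to 0.154 without NSC replicate 1 or 3 or astrocyte replicate 1 or 3). The call was also lost with replicate numbers blocked (adjusted p = 0.0712), without a variance trend (adjusted p = 0.0727) and without a filter (adjusted p = 0.113, limma in each). The antisense gene Irx3os, whose exons overlap those of Irx3 on the opposite strand, followed the same order, from means of 2.55, 3.25 and 3.21 in NSCs to 4.40, 4.37 and 3.45 in astrocytes (tdTomato, EYFP, hippocampal). The strand setting of the counting is not given in the sources used here, and 2.32% of the stretches of Irx3 are shared with Irx3os or Irx6.

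Dbx2, a homeodomain factor of interneuron progenitors near the middle of the axis, was the member with the highest level per kilobase of exon in every group. It was at 11.27, 11.04 and 10.88 in tdTomato NSCs, 11.81, 11.83 and 11.74 in EYFP NSCs and 11.46, 11.59 and 11.61 in hippocampal NSCs. Among the astrocytes the values were 11.14, 11.35 and 11.11 (tdTomato), 11.04, 10.93 and 11.09 (EYFP) and 10.50, 10.73 and 10.54 (hippocampal). Astrocytes lay below NSCs with no overlap in the EYFP and hippocampal lines, and the tdTomato groups overlapped. The changes were -0.77 in the EYFP line (standard error 0.05, adjusted p = 8.1e-07) and -0.96 in the hippocampal line (standard error 0.07, adjusted p = 5.42e-07, limma), against 0.14 in the tdTomato line (95% interval -0.08 to 0.36, limma adjusted p = 0.209). Without tdTomato NSC replicate 1, the highest of its group, the change in the tdTomato line was 0.24 and passed the threshold (limma adjusted p = 0.0241). The value over all lines, -0.53 (limma adjusted p = 0.00092), therefore joins lines that did not move alike.

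Nkx2-2, the most ventral of the factors, which marks the most ventral interneuron domain and later oligodendrocyte precursors, fell the most. Its values were 7.79, 7.88 and 7.86 in tdTomato NSCs, 6.91, 6.99 and 6.64 in EYFP NSCs and 6.60, 6.59 and 6.07 in hippocampal NSCs. In the same order of lines, astrocytes were at 5.65, 5.95 and 5.49, at 4.46, 4.35 and 3.73, and at 4.12, 4.23 and 4.43. No astrocyte library reached the lowest NSC library. Over all lines Nkx2-2 changed by -2.33 (standard error 0.12, adjusted p = 5.32e-12, limma), which leaves 0.199 of the NSC level, and by line it changed by -2.15, -2.67 and -2.16 (tdTomato, EYFP, hippocampal, with limma adjusted p = 3.69e-07, 1.8e-06 and 2.64e-06). Nkx2-2os, which overlaps it on the opposite strand and shares 7.17% of its stretches, had group means of only 0.48 to 1.95.

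The summed level of 8 oligodendrocyte lineage markers moved with Nkx2-2 and in each line stood lower after BMP4. On the log2 scale the sum was 12.02 to 12.11 in tdTomato NSCs, 12.05 to 12.18 in EYFP NSCs and 11.47 to 11.79 in hippocampal NSCs. It was 11.45 to 11.57, 10.99 to 11.24 and 10.48 to 10.61 in the astrocytes of the same lines, and 3 to 5 of the 8 had a group mean of at least 10 on the linear scale. Of the defining markers, Sox10 had group means of -0.03 to 0.88. The part of this lineage in the fall of Nkx2-2 was not tested.

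Nkx6-1, which covers the ventral neural tube across the motor neuron domain and its neighbours, was at 9.09, 9.05 and 8.94 in tdTomato NSCs and 9.69, 9.80 and 9.74 in tdTomato astrocytes. In the EYFP line it was at 8.76, 8.79 and 8.72 in NSCs and 8.91, 8.81 and 8.83 in astrocytes. It rose in the tdTomato line by 0.71 (standard error 0.06, adjusted p = 3.14e-06, limma), and its change was 0.10 in the EYFP line (95% interval -0.04 to 0.24, limma adjusted p = 0.185), although the EYFP groups did not overlap. With median centring the EYFP change was 0.15 (adjusted p = 0.0461) and with quantile normalization also 0.15 (adjusted p = 0.0496, limma), so that with either scaling all 5 members passed in that line. The hippocampal change was 0.14 (95% interval -0.25 to 0.53, limma adjusted p = 0.489), between values of 4.23 to 4.56, and it turned to -0.22 with quantile normalization.

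Of the 5 members tested, 4 were called in each line on its own, where 79.3% (tdTomato), 74.9% (EYFP) and 77.3% (hippocampal) of all genes were called (limma, Benjamini-Hochberg). The tdTomato line had 3 rises and 1 fall, and the other lines had 2 of each. In the hippocampal line 3 were called with replicate numbers blocked or without a variance trend, where Irx3 was lost.

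**Figure D2:**
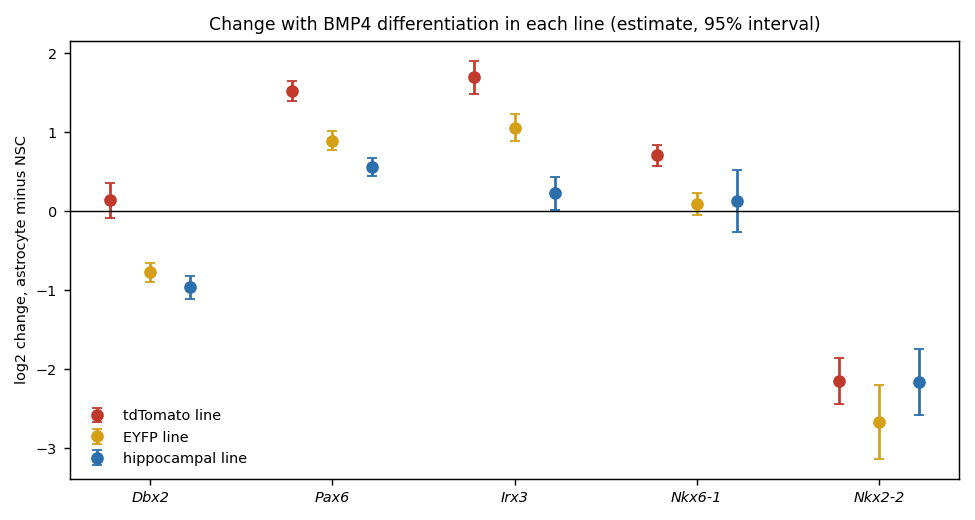
Log2 change from NSC to astrocyte (y axis) of the 5 members tested, in each line, as the limma estimate with its 95% interval (3 against 3 libraries). Pax6 rose and Nkx2-2 fell in every line, and the estimates of Dbx2 ran from -0.96 in the hippocampal to 0.14 in the tdTomato line.

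Whether the change with BMP4 differed between lines was tested with interaction terms on the 18 libraries. Traced and hippocampal cultures differed in the change of Irx3 by 1.15 (standard error 0.11, adjusted p = 2.69e-07), of Pax6 by 0.65 (standard error 0.07, adjusted p = 4.55e-07), of Dbx2 by 0.65 (standard error 0.11, adjusted p = 7.61e-05) and of Nkx6-1 by 0.27 (standard error 0.10, adjusted p = 0.0317, limma in each), with the more positive change in the mean of the traced lines. Line by line, Nkx6-1 changed by 0.71, 0.10 and 0.14 (tdTomato, EYFP, hippocampal), so that the EYFP estimate was not above the hippocampal one. The change of Dbx2 was 0.14, -0.77 and -0.96 in the same order, with the EYFP line nearer to the hippocampal than to the tdTomato line, whereas for Irx3 and Pax6 both traced lines had the larger rise. That made 4 of 5 members, against 46.2% of all genes. The call of Nkx6-1 was lost without any 1 of 7 of the 18 libraries (limma adjusted p of 0.0508 to 0.0925), and 3 members were then called. Those libraries were tdTomato NSC replicate 3, hippocampal NSC replicates 1 and 2, tdTomato astrocyte replicate 2, EYFP astrocyte replicate 1 and hippocampal astrocyte replicates 2 and 3. For Nkx2-2 the difference was -0.25 (95% interval -0.73 to 0.24, limma adjusted p = 0.404). The traced lines also differed from each other. The tdTomato line had the more positive change in the same 4 genes, by 0.91 in Dbx2 (adjusted p = 0.000178), 0.64 in Irx3 (adjusted p = 0.00398), 0.63 in Pax6 (adjusted p = 8.99e-05) and 0.62 in Nkx6-1 (adjusted p = 0.00166, limma in each), against 13.3% of all genes called, and by 0.52 in Nkx2-2 (95% interval -0.04 to 1.08, limma adjusted p = 0.213). For Dbx2 and Nkx6-1 the estimate between the traced lines was larger than that between origins, which was not tested. The 3 NSC markers had a median change of -0.22 in the hippocampal line, with 1 higher and 1 lower. Their median was -3.18 in the tdTomato and -3.05 in the EYFP line, with 1 higher and 2 lower in each. Of the 3, 1 had a more negative change in traced than in hippocampal cultures, against 46.2% of all genes called. The part of these markers was not tested.

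The comparison of traced with hippocampal cultures asks how near cells traced in the spinal cord are to NSCs of an established brain niche. In NSCs, 1 of the 5 members tested passed the threshold, Nkx6-1, against 19.4% of all genes (10.6% higher and 8.81% lower in traced NSCs). The hippocampal NSC libraries had Nkx6-1 values of 4.25, 4.25 and 4.23, and the lowest traced NSC library had 8.72. The difference was 4.65 (standard error 0.10, adjusted p = 1.08e-09, limma), and the traced lines alone gave 4.78 and 4.51 (tdTomato, EYFP). In astrocytes the hippocampal values were 4.56, 4.32 and 4.27, and the difference was 4.91 (standard error 0.25, adjusted p = 1.51e-07, limma), or 5.36 and 4.47 for the traced lines alone. The reads behind the hippocampal values are not known, and the size of both differences depends on how far the transform pulled them towards the mean of the gene.

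For Pax6 and Dbx2 the traced lines lay on either side of the hippocampal NSCs, which a mean over both lines does not show. Pax6 in tdTomato NSCs was below hippocampal NSCs by 0.22 (log2 difference -0.22, 95% interval -0.30 to -0.13, limma adjusted p = 0.0015), and in EYFP NSCs it was above them by 0.20 (95% interval 0.09 to 0.30, limma adjusted p = 0.0131). Over both lines its difference was -0.01 (95% interval -0.28 to 0.26, limma adjusted p = 0.963). Dbx2 did the same, at -0.49 in the tdTomato (adjusted p = 0.00166) and 0.24 in the EYFP line (adjusted p = 0.00689, limma), with -0.13 over both (adjusted p = 0.732). Irx3 was at -0.38 in the tdTomato line (adjusted p = 0.00699) and at 0.05 in the EYFP line (95% interval -0.16 to 0.27, adjusted p = 0.728, limma), with -0.17 over both (adjusted p = 0.482). These single-line tests, chosen after the values were seen, used the same hippocampal libraries and called 5 members in the tdTomato and 3 in the EYFP line, against 42.3% and 27.6% of all genes. Of the 6 astrocyte markers 3 were lower and none higher in traced than in hippocampal NSCs, with sums of 14.96 to 15.78 and 16.10 to 16.14, and their part was not tested.

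Nkx2-2 was higher in all 6 traced than in all 3 hippocampal NSC libraries, but the difference of 0.93 missed the threshold (95% interval 0.25 to 1.61, limma adjusted p = 0.0603), with the difference between the traced lines counted as spread. The tdTomato line alone lay 1.42 above the hippocampal line (adjusted p = 4.53e-05) and the EYFP line 0.43 above it (95% interval 0.06 to 0.80, limma adjusted p = 0.0858). Without EYFP NSC replicate 1 or 3 the adjusted p over both lines was 0.0489 or 0.0272, and with the spread taken from all 6 groups it was 0.000221 (limma).

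After BMP4, the intermediate factors also stood above the hippocampal line. In traced astrocytes 4 of 5 members were higher than in hippocampal astrocytes, against 24.1% of all genes (27.9% lower, 52.0% in all). The differences were 0.99 for Irx3 (standard error 0.09, adjusted p = 9.47e-06), 0.64 for Pax6 (standard error 0.08, adjusted p = 7.35e-05) and 0.52 for Dbx2 (standard error 0.08, adjusted p = 0.000463, limma in each). Each traced line alone gave the same direction, from 0.43 for Dbx2 in the EYFP line to 1.09 for Irx3 in the tdTomato line, with 55.0% of all genes called in the tdTomato and 47.2% in the EYFP line. Nkx2-2 differed between the lines here, with 1.44 in the tdTomato line (limma adjusted p = 0.00017) and -0.08 in the EYFP line (95% interval -0.61 to 0.46, limma adjusted p = 0.809), and its difference over both lines was 0.68 (limma adjusted p = 0.229, or 0.00152 with the spread taken from all 6 groups, where all 5 members passed). The summed level of the 6 astrocyte markers was 17.17 to 17.63 in traced and 17.63 to 17.82 in hippocampal astrocytes on the log2 scale, and that of the 3 NSC markers was 12.95 to 13.21 and 14.20 to 14.46. The 3 ependymal markers tested were all lower in traced astrocytes (median -1.04), with sums of 11.01 to 11.36 and 12.16 to 12.33. Of 4 neuron markers tested 3 were higher and 1 lower there (median 1.11), with sums of 8.46 to 8.88 and 8.43 to 8.82, and Stmn2 had a group mean of -0.77 or less throughout. Of 5 oligodendrocyte lineage markers tested, 2 were higher and 3 lower in traced astrocytes (median -0.70). The sums of that list were 10.99 to 11.57 in traced and 10.48 to 10.61 in hippocampal astrocytes. The part of all these markers in the differences was not tested.

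**Figure D3:**
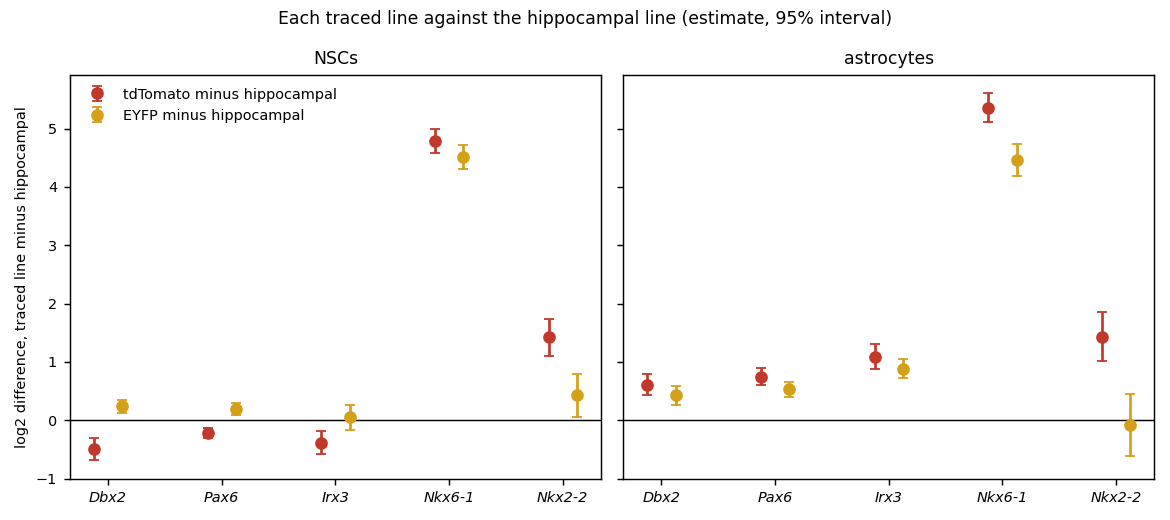
Log2 difference between each traced line and the hippocampal line (y axis) for the 5 members tested, in NSCs (left) and astrocytes (right), as the limma estimate with its 95% interval (3 against 3 libraries, the same hippocampal libraries for both lines). Nkx6-1 stood at 4.47 to 5.36, and in NSCs Dbx2 and Pax6 were on opposite sides of 0 in the traced lines.

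Between the traced lines, all 5 members tested differed in NSCs, against 33.2% of all genes. The ventral factors were higher in the tdTomato line, Nkx2-2 by 1.00 (adjusted p = 0.000337) and Nkx6-1 by 0.28 (adjusted p = 0.00869). The intermediate factors were lower there, with log2 differences of -0.73 for Dbx2 (adjusted p = 0.000598), -0.43 for Irx3 (adjusted p = 0.00637) and -0.41 for Pax6 (adjusted p = 0.000448, limma in each). Of the 6 astrocyte markers, 4 were also lower and 1 higher in tdTomato NSCs (median -0.59), with a summed level of 14.96 to 15.31 against 15.56 to 15.78 in EYFP NSCs on the log2 scale. The sum of the 4 ependymal markers found was 9.45 to 9.79 against 10.28 to 10.33, with 1 of the 2 tested lower, and the part of these markers in the differences was not tested. In astrocytes 2 of 5 were called, against 11.2% of all genes, Nkx2-2 at 1.51 (adjusted p = 0.00329) and Nkx6-1 at 0.89 (adjusted p = 3.77e-05, limma). Dbx2, Pax6 and Irx3 were at 0.18, 0.21 and 0.21 (limma adjusted p = 0.161, 0.06 and 0.167), the opposite sign to that in NSCs. Pax6 passed with median centring (adjusted p = 0.0436), with quantile normalization (adjusted p = 0.0384), with the spread taken from all 6 groups (adjusted p = 0.012) and with replicate numbers blocked (adjusted p = 0.0032, limma in each), at differences of 0.21 to 0.23. Without tdTomato astrocyte replicate 2, 4 of the 5 were called, Pax6 and Irx3 among them (limma adjusted p = 0.0352 in both). Of 3 oligodendrocyte lineage markers tested in astrocytes, 2 were higher and none lower in the tdTomato line (median 0.45). The sum of the 8 markers was 11.45 to 11.57 in tdTomato and 10.99 to 11.24 in EYFP astrocytes. In NSCs, 2 of 4 tested were lower and none higher in the tdTomato line. The part of this lineage was not tested.

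Ordered by group mean, Pax6 ran from tdTomato, hippocampal and EYFP NSCs to hippocampal, EYFP and tdTomato astrocytes, with no overlap between neighbours. For Irx3, EYFP and hippocampal NSCs overlapped, as did hippocampal astrocytes with EYFP NSCs and the 2 traced astrocyte groups with each other. The order of Dbx2 began with EYFP and hippocampal NSCs and ended with hippocampal astrocytes, and the tdTomato groups and EYFP astrocytes between them overlapped. The groups of Nkx6-1 stood in the order tdTomato astrocytes and NSCs, EYFP astrocytes and NSCs, hippocampal astrocytes and NSCs, also without overlap. Nkx2-2 ran from tdTomato through EYFP and hippocampal NSCs to tdTomato astrocytes, below which EYFP and hippocampal astrocytes overlapped. Per kilobase of annotated exon, the mean log2 value in tdTomato NSCs was 9.27 for Dbx2, 7.38 for Nkx6-1, 6.56 for Irx3, 6.49 for Pax6 and 6.32 for Nkx2-2. The exons of all transcripts were merged for this, which lowers the value per kilobase of a gene with many transcripts, such as Pax6 with 26.

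Over the 18 libraries, Pax6 and Irx3 had a Pearson correlation of 0.97, and Pax6 and Nkx2-2 one of -0.72. Of 11398 protein-coding genes compared, those most like Pax6 were Nfix (r = 0.99), Pdzrn3 (0.98) and Amer2 (0.98), and those most like Irx3 were Ldhb (0.98), Fjx1 (0.97) and Pax6 itself (0.97). Nkx6-1 was followed most closely by genes of the Hox clusters, which set position from head to tail, namely Hoxc4 (r = 0.998), Hoxc6 (0.997) and Hoxb8 (0.995). Closest to Nkx2-2 were Camk2b (0.98), Haus4 and Kdm5c (0.97 in both), and closest to Dbx2 were Lrrn1, Per2 and Ufl1 (0.92 in each). The libraries fall into 6 groups that share lines and fates, so that these correlations describe the group pattern.

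Other factors of the axis did not move as one block. Of 10 other dorsal progenitor factors tested, 7 rose and 2 fell with BMP4 over all lines (median log2 change 0.74, against 0.02 over all genes), and of 7 other intermediate and ventral factors 2 rose and 5 fell (median -1.53), where 42.1% of all genes rose and 39.8% fell. Olig2, the factor of the motor neuron and oligodendrocyte domain, fell by 2.01 (limma adjusted p = 2.67e-13), and Msx1, a dorsal factor induced by BMP, rose by 2.10 (limma adjusted p = 4.03e-12). Both were chosen after their values were seen. Of the relatives in the Irx, Pax and Nkx families 6 could be tested, 2 of which rose and 2 fell (median 0.07). In NSCs, traced against hippocampal, 1 dorsal factor was higher and 5 of 7 lower (median -0.57), and 2 of 6 other intermediate and ventral factors were higher and none lower (median 0.07), with 3 of 6 relatives higher, against 10.6% of all genes higher and 8.81% lower. In astrocytes 3 of 10 dorsal factors were higher and 5 lower (median -0.27), 3 of 6 intermediate and ventral factors were higher and 2 lower (median -0.23), and 2 of 6 relatives were higher and 2 lower, against 24.1% of all genes higher and 27.9% lower. Zic1, a dorsal zinc finger factor, led these differences, at 8.22, 5.02 and 10.12 in tdTomato, EYFP and hippocampal NSCs and 7.24, 4.43 and 10.04 in their astrocytes. Its log2 difference was -3.50 between traced and hippocampal NSCs (adjusted p = 0.0214) and 3.20 between tdTomato and EYFP NSCs (adjusted p = 6.92e-07, limma). Zic2 was lower in traced than in hippocampal astrocytes, with a log2 difference of -1.52 (limma adjusted p = 5.34e-08), and Msx1 was higher there by 1.33 (limma adjusted p = 1.13e-05). Prdm8, of intermediate progenitors, was higher in traced than in hippocampal NSCs by 0.76 (limma adjusted p = 0.0381) and in tdTomato than in EYFP NSCs by 0.74 (limma adjusted p = 0.000316).

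**Figure D4:**
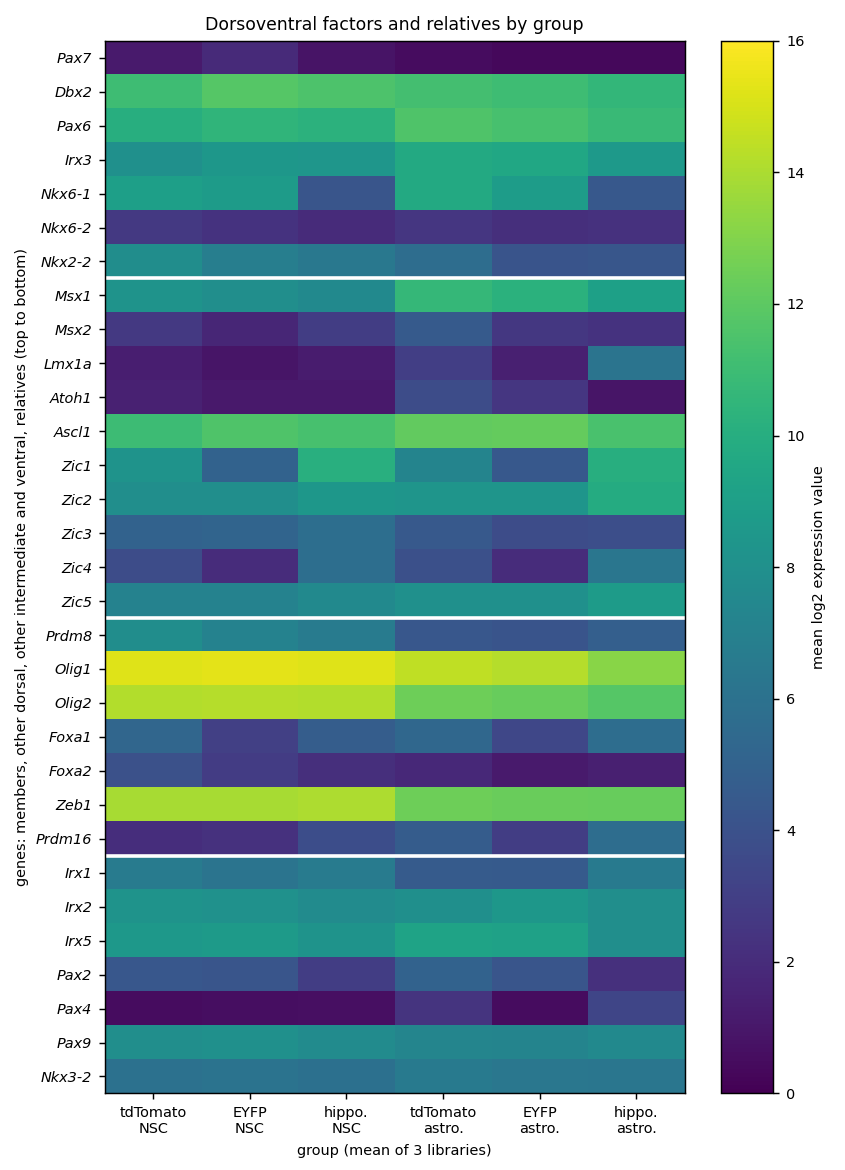
Mean log2 expression value (colour, 0 to 16) of the 7 members and of the listed dorsal, intermediate and ventral factors and relatives with a group mean of at least 3.32, in the 6 groups (columns, 3 libraries each). Olig1 had the highest value in every group, and Nkx6-1 and Zic1 the largest steps between lines.

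The signals that set the axis were read through their components. All 9 BMP response genes tested rose with BMP4 over all lines (median 2.87, with 42.1% of all genes rising), led by Id4 (4.33, adjusted p = 1.13e-15), Nog (3.65, adjusted p = 5.31e-13), Smad9 (3.59, adjusted p = 3.64e-17) and Smad6 (3.55, adjusted p = 7.9e-14, limma in each), and 5 of 6 dorsal BMP and Wnt ligands rose and 1 fell. Bmp7 was that ligand, with a change of -3.49 over all lines (limma adjusted p = 1.65e-15), and in the tdTomato, EYFP and hippocampal lines it changed by -3.22, -3.28 and -3.98. In the hippocampal line on its own, 2 of 4 ligands rose and 2 fell. Of 10 hedgehog components tested, 2 rose and 6 fell (median -0.22), a share called close to the 81.9% of all genes. Shh itself had group means of -1.69 to -1.63 and Gli1, a target of the pathway, 1.66 to 2.42, whereas Ptch1, receptor and target, was at 10.87 to 12.04, values that were chosen after they were seen. Between origins, 5 of the 10 differed in NSCs, 3 higher and 2 lower in traced cultures, and 6 of 9 differed in astrocytes, 5 higher and 1 lower, against 19.4% and 52.0% of all genes. Cdon, a hedgehog co-receptor, was higher in traced NSCs by 0.95 (adjusted p = 7.35e-05) and in traced astrocytes by 1.67 (adjusted p = 4.01e-07, limma). Gli2, a transducer of the pathway, was lower in traced than in hippocampal NSCs, at a mean of 7.30 against 8.31 (limma adjusted p = 0.0255), and lower in tdTomato than EYFP NSCs, with a log2 difference of -0.88 (limma adjusted p = 0.00111).

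Retinoic acid genes, which act on the same progenitors, rose in 4 and fell in 2 of 7 cases with BMP4, close to the 81.9% of all genes that changed. Rarg, a receptor, was higher in the tdTomato than in the EYFP line by 0.72 in NSCs (adjusted p = 0.00511) and 0.86 in astrocytes (adjusted p = 0.00344, limma). Of 8 co-repressors through which homeodomain factors act, 6 fell and none rose over all lines (median -0.47), and in the tdTomato and hippocampal lines on their own 1 rose. Factors of later spinal neuron classes were lower in 6 of 9 and higher in 1 (median -0.62). Over all genes 42.1% rose and 39.8% fell (median 0.02), and the share called in both lists was again near 81.9%. Between the traced astrocyte groups, Wnt4 was at -0.87 (adjusted p = 0.0413) and Id2 at -0.74 (adjusted p = 0.00493, limma), both lower in the tdTomato line.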

How the data were processed

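RNA of 18 cultures was sequenced. Per the labels and the methods of the study, the authors trimmed reads with Trimmomatic (0.36), aligned them with STAR (2.5.2), estimated gene counts with RSEM (1.3.0 in the submitters' notes) on GRCm38 and normalized them with DESeq2 (1.18.1). The deposited values are on a log2 scale, and 29.4% are below 0. The methods of the study give 1 approximate number of single-end reads for all libraries. The transform, the strand setting of the counting, the total of each library and the reads behind each value are not given in the sources used here, so that the depth of single libraries is unknown and counting error was not estimated. Every column of samples was used (0 left out).

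The values were tested as deposited, with no pseudocount, with limma (3.58.1, R 4.3.3, variance trend) and Benjamini-Hochberg adjustment over all genes that reached 3.32, which is log2 of 10, in 3 or more of the libraries compared, at a threshold of 0.05. Fate was tested over all lines with the line as a covariate and within each line, traced against hippocampal cultures within each fate (6 against 3), tdTomato against EYFP (3 against 3), and differences in change over 6 group means. Gene models, overlaps and exon lengths come from GENCODE on GRCm38, and promoters from RefSeq (GRCm38.p6).

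All members were named. Of the other lists, up to 4 genes per comparison were named, those with the largest difference among genes past the threshold, without overlap and with a mean of at least 6.64 in the higher group, with the 3 protein-coding genes most correlated with each member, its neighbours within 20 kb and the genes that check the labels. Members and lists were chosen with earlier results of these data known, and 2 listed genes are not reported here and were left out of their lists. Alternatives were other filters, scalings, variance models and designs, a pseudocount of 10, a replicate block, leaving out each library and, chosen after seeing the data, each traced line alone.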

Additional observations from a re-analysis of the deposited data

Results flagged for a closer look

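The change from NSC to astrocyte differed between lines in 8 cases among the members, by a test of the difference itself (limma interaction over all 18 libraries, Benjamini-Hochberg). Between traced and hippocampal cultures, the change was more positive in the mean of the traced lines by 1.15 for Irx3, by 0.65 for Pax6, by 0.65 for Dbx2 and by 0.27 for Nkx6-1. In the EYFP line alone, Nkx6-1 changed by 0.10 and Dbx2 by -0.77, against 0.14 and -0.96 in the hippocampal line. The difference for Nkx6-1 rests on hippocampal values of 4.23 to 4.56 and was lost without any 1 of 7 of the 18 libraries (adjusted p of 0.0508 to 0.0925). Between the traced lines, the change was more positive in the tdTomato line by 0.91 for Dbx2, by 0.63 for Pax6, by 0.64 for Irx3 and by 0.62 for Nkx6-1.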

How the results depend on the processing

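Of 405 recomputed differences of members, 383 kept their direction and side of the threshold, 13 newly passed it, 4 no longer did and 5 reversed. Reversals were Nkx6-1 with fate in the hippocampal line under quantile normalization (-0.22) and, with the EYFP line alone against the hippocampal line, Dbx2 (0.24), Pax6 (0.20) and Irx3 (0.0515) in NSCs and Nkx2-2 (-0.0775) in astrocytes. Nkx6-1 with fate in the EYFP line passed with median centring (0.15) and quantile normalization (0.15), and all 5 members then passed there. With fate in the tdTomato line, leaving out 1 library gave 4 to 5 members and 0.05 to 0.24 for Dbx2 (adjusted p = 0.0241 without tdTomato NSC replicate 1, limma). The members called between traced and hippocampal NSCs, 1 as reported, were 2 with all 6 groups in the fit, 5 with the tdTomato line alone and 3 with the EYFP line alone, and between tdTomato and EYFP astrocytes, 2 as reported, 1 with a filter of 100 on the linear scale, where 4 could be tested. Leaving out 1 library gave 1 to 2 members between traced and hippocampal NSCs (2 without EYFP NSC replicate 1 or 3, through Nkx2-2), 2 to 4 between tdTomato and EYFP astrocytes (4 without tdTomato astrocyte replicate 2), and 3 to 4 with fate in the hippocampal line, and it moved Pax6 between traced and hippocampal NSCs from -0.0682 to 0.0331 (above 0 without any of the tdTomato NSC libraries). Irx3 with fate in the hippocampal line was lost without a filter (adjusted p = 0.113), without a variance trend (adjusted p = 0.0727) and with the replicate block (adjusted p = 0.0712, limma). Nkx6-1 with fate over all lines was lost with quantile normalization (adjusted p = 0.0591), and without a filter Pax7 fell with fate by 0.91 (limma adjusted p = 0.000391). Same-numbered libraries of a fate correlated by 0.106 on average (0.012 to 0.313, 9 of 18 pairs over 0.1) and those of a line by -0.023 (9 pairs), and in none of the 6 comparisons of 2 lines within a fate were all 3 pairs over 0.1, so the numbers were not taken to pair the libraries. All 18 were above 0, and 4 to 6 of the 6 libraries of each such comparison correlated best with their own number, a hint from the data that same-numbered libraries of a fate share something. The replicate block left the members called at 5 with fate over all lines and 1 between traced and hippocampal NSCs, and gave 3 between tdTomato and EYFP astrocytes, where Pax6 passed (adjusted p = 0.0032, and 0.012 to 0.0436 with median centring, quantile normalization or all 6 groups in the fit), with 3049 genes called in all against 1641. With all 6 groups in the fit, 4864 genes were called between traced and hippocampal NSCs against 2822. The causes were not tested, and low levels were limited by the scale.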
